A study of Homo sapiens with 32 samples.

Results

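KIRREL3, LRRTM4 and GPHN are 3 very long human genes whose proteins work at neuronal synapses, described here by the N6-methyladenosine (m6A) peaks in their RNA. A peak belongs to a gene when its summit lies in the gene's RefSeq span on hg38. By that rule 391 of 180114 peaks over 4 lists are members, of which 181 lie in KIRREL3, 84 in LRRTM4 and 126 in GPHN. The genes were picked with their behaviour in these lists known, so presence and fold are given as description and nothing is tested.

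The lists come from A375 cells, an established human melanoma line, and from the chromatin-associated RNA of these cells after depletion of ribosomal RNA. Fragments carrying m6A were pulled down with an antibody kit and sequenced (MeRIP-seq). In the shMETTL3 group (2 libraries, genotype label METTL3 knockdown) a hairpin RNA targets METTL3, and in the shControl group (2 libraries, genotype label WT) the cells carry a control hairpin. Peak names of the knockdown lists carry a "ko" prefix, whereas the labels say knockdown. The other libraries among the 32 samples, inputs included, are not analysed here.

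METTL3 is the catalytic subunit of the complex that writes most m6A, and it acts while RNA is still being made, so that introns can be marked as well. KIRREL3 encodes an immunoglobulin-type adhesion protein that binds itself across the cleft between cells and helps form hippocampal synapses. LRRTM4 encodes a leucine-rich repeat protein of the postsynaptic membrane, which binds neurexins and heparan sulfate proteoglycans. GPHN encodes gephyrin, which is a cytoplasmic scaffold and not an adhesion protein. It holds glycine and GABA-A receptors under inhibitory synapses and also completes molybdenum cofactor synthesis in most tissues.

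The lists held 44108 and 42969 peaks in shMETTL3 and 45345 and 47692 in shControl. How many reads stand behind them is unknown. The labels do not say whether replicates were separate cultures or whether a hairpin line is 1 clone, so replicate spread may be purely technical. METTL3 itself had 4 and 4 loci in the shMETTL3 lists and 5 and 4 in the shControl lists, which does not measure its RNA. Of 10 melanocyte lineage genes MITF and MC1R had peaks in all 4 lists, while PMEL, MLANA, TYR, TYRP1, DCT, SOX10, SLC45A2 and OCA2 had none in any list. All 10 genes of the dedifferentiated melanoma state had a locus, against 4 of 10 neuron, 2 of 9 keratinocyte and 1 of 10 leukocyte genes. Peak lists do not measure RNA amounts, and fewer cells of a type and less RNA per cell cannot be told apart.

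No peak lay at the annotated start of KIRREL3 or GPHN, and the nearest loci were 2.69 kb and 2.71 kb inside the genes. RefSeq (GRCh38.p14) windows of 300 bases, 250 before and 50 after the start, were given for KIRREL3 on the minus strand (chr11:127003345-127003644) and for GPHN on the plus strand (chr14:66507897-66508196). They are shown because the KIRREL3 and GPHN distances below are counted from these starts, and no peak of any list reached either window. Capitals mark GGAC and AGAC, 2 spellings of the core of the m6A consensus. The windows read, 5′ to 3′ on the gene's strand:
KIRREL3 start: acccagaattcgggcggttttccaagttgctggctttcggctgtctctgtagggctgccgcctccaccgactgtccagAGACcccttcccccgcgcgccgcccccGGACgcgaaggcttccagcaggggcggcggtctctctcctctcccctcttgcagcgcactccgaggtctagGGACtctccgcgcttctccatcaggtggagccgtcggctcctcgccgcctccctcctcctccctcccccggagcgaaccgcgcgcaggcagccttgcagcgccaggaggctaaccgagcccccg
GPHN start: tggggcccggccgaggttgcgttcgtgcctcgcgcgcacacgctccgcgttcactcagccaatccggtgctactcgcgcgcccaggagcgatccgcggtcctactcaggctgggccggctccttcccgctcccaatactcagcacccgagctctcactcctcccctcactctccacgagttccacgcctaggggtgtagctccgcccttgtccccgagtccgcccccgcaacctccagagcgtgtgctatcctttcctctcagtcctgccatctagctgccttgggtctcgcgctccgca
The KIRREL3 window holds 3 such matches on its own strand and 4 on the other, and the GPHN window 0 and 5. Of all 35116 RefSeq start windows of this length, 86.7% hold a match on their own strand and 98.3% on either, so a match is common.

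Parts of 2 KIRREL3 loci fall in the start windows of genes on the opposite strand, so their sequence can be shown. The first is 200 bases of a locus found in all 4 lists, 10.5 kb inside the gene (chr11:126992281-126992480). The other is 37 bases of a locus found in both shMETTL3 lists and in neither shControl list, 62.5 kb inside the gene (chr11:126940759-126940795). Both are written as the RNA of the minus strand, with the same capitals:
KIRREL3 shared locus: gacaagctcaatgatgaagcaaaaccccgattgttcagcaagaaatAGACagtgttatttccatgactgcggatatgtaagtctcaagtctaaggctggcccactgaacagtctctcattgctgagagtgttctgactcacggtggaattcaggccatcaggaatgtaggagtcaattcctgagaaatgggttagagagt
KIRREL3 shMETTL3 locus: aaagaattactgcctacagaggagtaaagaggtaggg
The longer stretch has 1 match on its strand and 3 on the other, and the shorter one has 0 on both. The summit of neither locus lies in its printed stretch. Matches on the own strand were found in 73.4% of start windows cut to 200 bases and in 22.5% of those cut to 37 bases.

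KIRREL3 had many peaks after METTL3 knockdown and few without it. Its span on chromosome 11 (126423358 to 127003394, 580 kb) held 82 and 76 peaks in shMETTL3 replicates 1 and 2, against 12 and 11 in shControl replicates 1 and 2. The means were 79 ± 4.24 in shMETTL3 and 11.5 ± 0.707 in shControl (SD, n = 2 each). Peaks covered 36.4 and 33.2 kb of the gene in shMETTL3, against 3.90 and 3.94 kb in shControl. A KIRREL3 peak was about as wide in both groups, with medians of 286 and 274.5 bp in shMETTL3 and 276 and 320 bp in shControl.

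LRRTM4 showed the opposite order. Its span on chromosome 2 (76747685 to 77522376, 775 kb) held 13 and 14 peaks in the shMETTL3 lists and 26 and 31 in the shControl lists (means 13.5 ± 0.707 and 28.5 ± 3.54, SD, n = 2 each). GPHN stood between them, with 38 and 39 peaks in shMETTL3 and 26 and 23 in shControl (means 38.5 ± 0.707 and 24.5 ± 2.12, SD, n = 2 each). Its span on chromosome 14 (66508147 to 67735355) is 1227 kb long. In none of the 3 genes did the shMETTL3 and shControl counts overlap. Of 10735 protein-coding genes with a peak, 19.4% had both shMETTL3 counts above both shControl counts and 24.4% had both below, and of the 200 of these that span at least 500 kb, 29.5% and 32.5%. Non-overlap is thus common among genes of this length, and 2 lists against 2 cannot give an exact permutation p below 0.333.

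**Figure D1:**
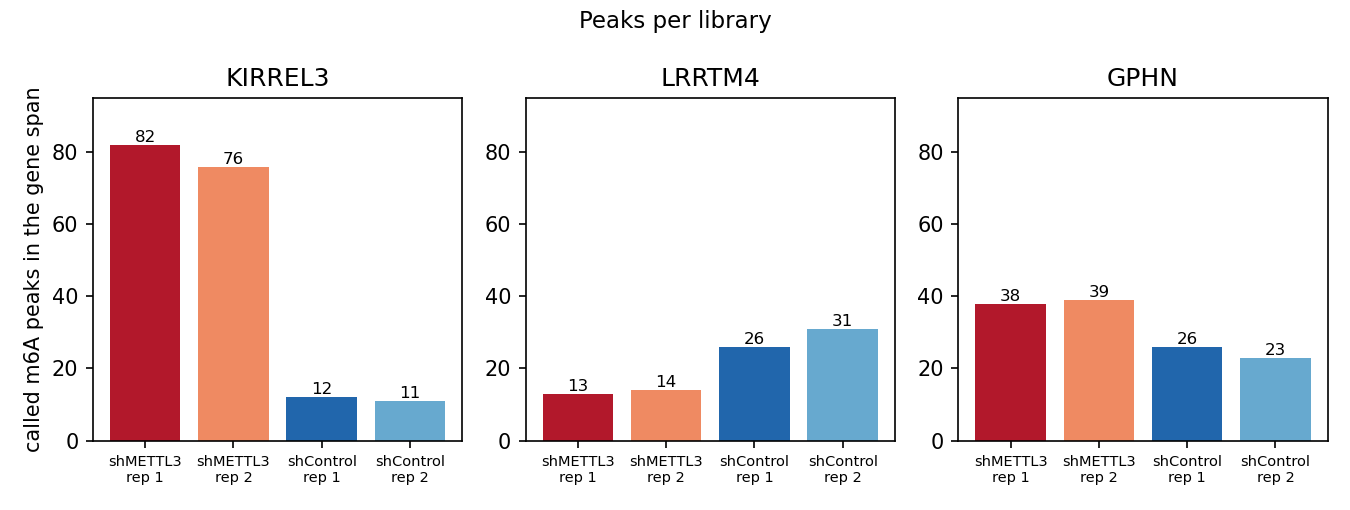
Bars give the number of called m6A peaks with a summit in the gene span (y axis, the same scale in each panel) for the 2 shMETTL3 lists in red and orange and the 2 shControl lists in blue. KIRREL3 had 82 and 76 peaks in shMETTL3 and 12 and 11 in shControl, while LRRTM4 had fewer in shMETTL3.

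Peaks of the 4 lists that share at least 1 bp on 1 strand were joined to a locus. A locus is called knockdown-only here when both shMETTL3 lists and neither shControl list have it, and control-only in the reverse case. KIRREL3 had 93 loci, of which 53 were knockdown-only, 1 control-only and 9 in all 4 lists. Of the 63 loci in both shMETTL3 lists, 84.1% were knockdown-only, where 18.9% of all 33195 such loci in the lists were. LRRTM4 had 33 loci, of which 0 were knockdown-only, 12 control-only and 7 in all 4 lists. Of its 21 loci in both shControl lists, 57.1% were control-only, where 22.6% of all 36660 such loci were. GPHN had 49 loci, with 14 knockdown-only, 1 control-only and 17 in all 4 lists, and 43.8% of its 32 loci in both shMETTL3 lists were knockdown-only. The genes were chosen on this contrast, so these shares are set beside the lists' shares as description only.

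Among 10717 protein-coding genes with a locus, KIRREL3 had the most knockdown-only loci over its full span, 53. Of these, 25 also lie in another gene and 28 in no other. SLC35F3 followed with 47, CDH13 with 34 and RUNX1 with 26, counts that were not split in this way. GPHN's 14, of which 5 lie where its span covers other genes, were reached or passed by 8 genes, itself included, and the 12 control-only loci of LRRTM4 by 20. At least 10 knockdown-only loci were found in 0.187% of these genes, and at least 10 control-only loci in 0.271%. Long genes went both ways. Among 200 protein-coding genes of 500 kb or more with a locus, knockdown-only loci were the more numerous in 65, control-only loci in 70, and the 2 were equal in 65.

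**Figure D2:**
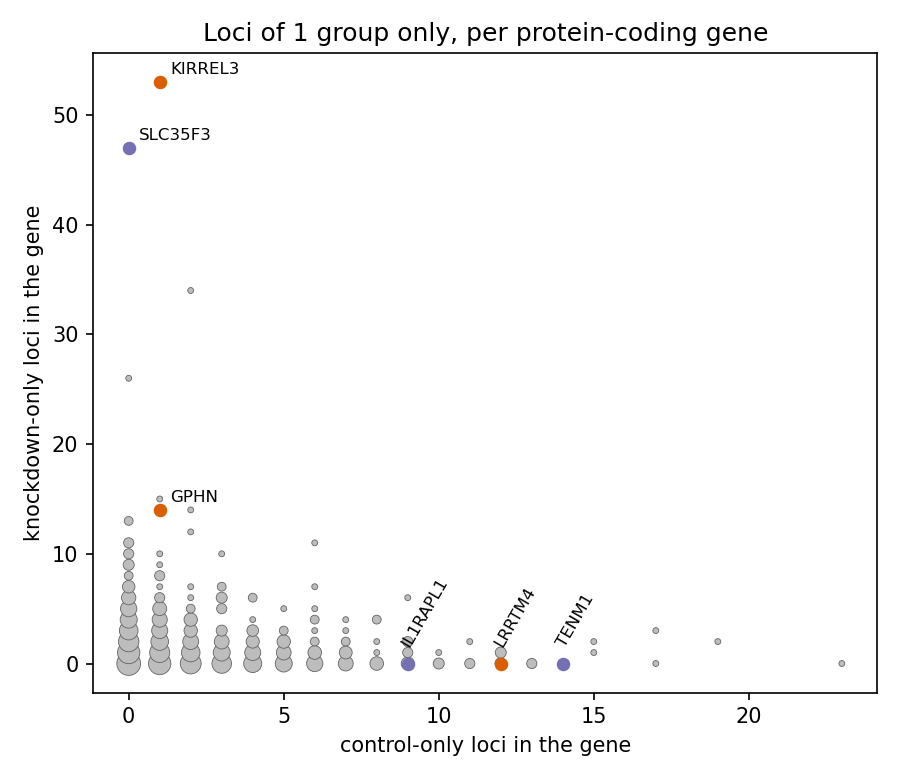
Each grey point is a pair of counts, knockdown-only loci (y axis) and control-only loci (x axis), over protein-coding genes, and its area grows with the logarithm of the number of genes there. KIRREL3 lies highest at 53 and 1, GPHN at 14 and 1, and LRRTM4 on the x axis at 12, near the adhesion genes IL1RAPL1 and TENM1.

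The KIRREL3 loci filled the first part of the gene. The promoter table puts KIRREL3 on the minus strand, and 89 of its 93 loci were on that strand, among them 52 of the 53 knockdown-only loci. In steps of 100 kb from the start, 37, 25, 23, 3, 1 and 0 loci of the gene's strand were found. Knockdown-only loci numbered 22, 15, 13, 2, 0 and 0 in the same steps. Between 100 and 200 kb both shMETTL3 lists shared 15 loci, and neither shControl list had any of them. On that strand the last locus of both shMETTL3 lists lay 373 kb from the start and the last of both shControl lists 254 kb. Loci of both shMETTL3 lists on that strand followed each other at a median distance of 2.08 kb, against 17.7 kb for loci of both shControl lists. The last locus on the gene's strand, 440.5 kb from the start, was seen in shMETTL3 replicate 1 alone, and none followed up to the gene's 3′ end.

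**Figure D3:**
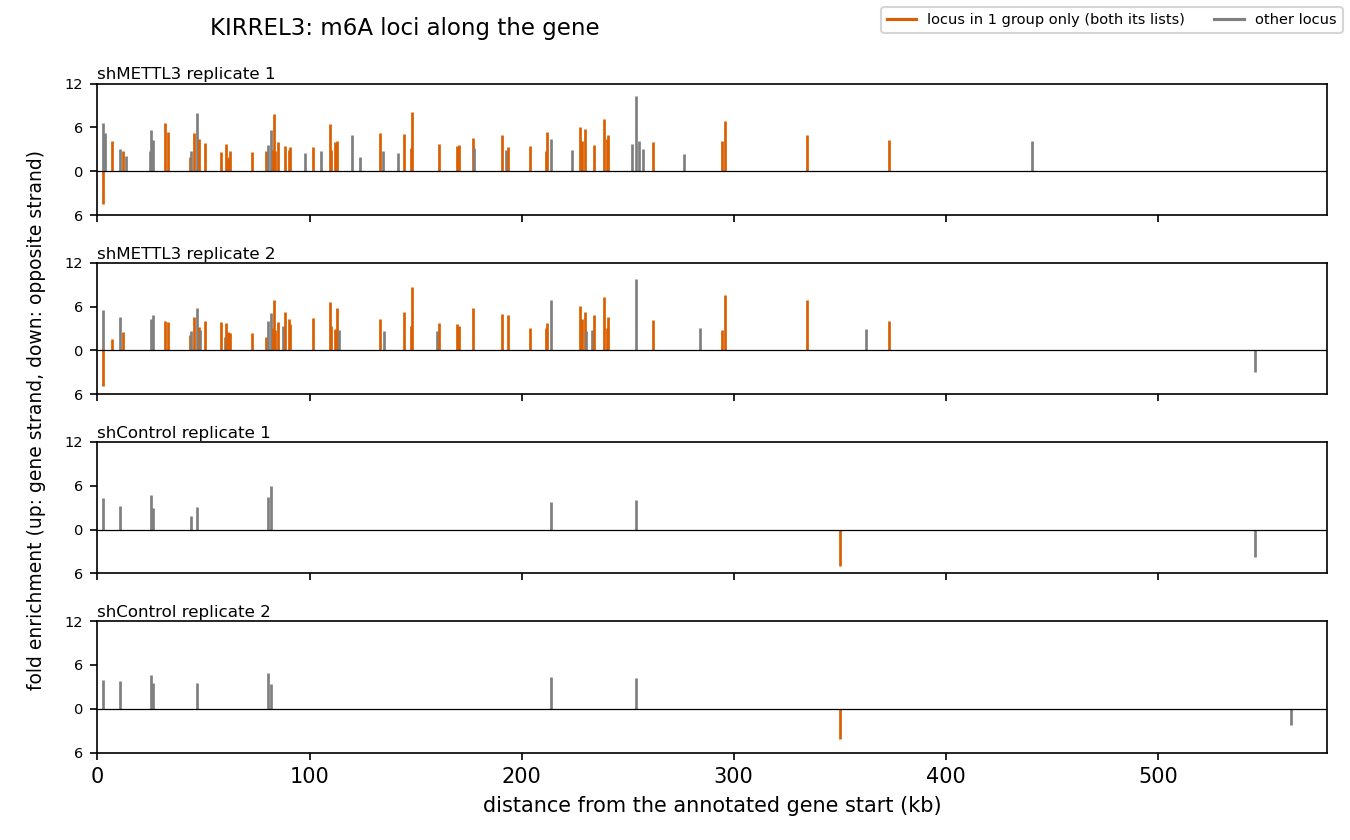
Each line is a locus at its distance from the KIRREL3 start (x axis, kb), as high as its strongest fold enrichment in that list (y axis, upwards for the gene's strand, downwards for the opposite one). Orange lines, present in both lists of 1 group and in neither of the other, crowd the first 300 kb in both shMETTL3 panels, while the shControl panels hold few lines.

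The knockdown-only loci of KIRREL3 had folds near those of all such loci. Fold enrichment, the peak caller's own ratio at a summit, had a median of 4.02 and 3.88 over these 53 loci in shMETTL3 replicates 1 and 2, where all knockdown-only loci of the lists had 3.71 and 3.73. The strongest lay 148 kb inside the gene (126854449 to 126855247), with folds of 8.17 and 8.69 in shMETTL3, at the 95.1th and 96.4th percentile of those lists. Others with folds above 6 in both shMETTL3 lists lay 83.1 kb from the start (7.79 and 6.96), 239 kb (7.13 and 7.28), 296 kb (6.85 and 7.65), 110 kb (6.52 and 6.58) and 228 kb (6.02 and 6.11). Of these strong loci, those at 83.1, 110 and 148 kb also lie in the gene LOC105369559 and that at 296 kb in LOC124902785. Those at 228 and 239 kb lie in no other gene. The lowest folds were 1.72 in replicate 1 and 1.60 in replicate 2. The summits of the 2 shMETTL3 lists lay at most 50 bp apart in 39 of the 53 loci, with a median distance of 20 bp.

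A further 27 KIRREL3 loci were seen in a single shMETTL3 list, 17 of them in replicate 1 and 10 in replicate 2. In shControl a single-list locus was found once, in replicate 2. By definition a knockdown-only locus is in both shMETTL3 lists. Leaving out 1 of these lists loosens that rule and so adds loci by construction. The count was then 65 without shMETTL3 replicate 1 and 72 without shMETTL3 replicate 2.

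At the 9 KIRREL3 loci present in all 4 lists, the shMETTL3 values were mostly higher. A locus 254 kb inside the gene (126748601 to 126749538) had folds of 10.4 and 9.74 in shMETTL3, against 4.11 and 4.25 in shControl. A locus 47.0 kb inside (126956112 to 126957774) had 7.95 and 5.79 in shMETTL3 and 3.16 and 3.52 in shControl. Nearest to the start, at 2.70 kb (126999942 to 127000955), the folds were 6.55 and 5.52 in shMETTL3 and 4.31 and 3.99 in shControl. Both shMETTL3 folds exceeded both shControl folds at 5 of the 9 loci, a pattern found at 31.6% of the 23691 loci shared by the 4 lists. The reverse held at 1 of 9, against 21.5% of all shared loci. That locus, 80.5 kb from the start (126922764 to 126923510), had 3.63 and 4.001 in shMETTL3 and 4.41 and 4.85 in shControl.

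The peak significance separated the groups at more loci than the fold. The −log10 q of a peak grows with its fold and with the reads that cover it, so it is no measure of methylation alone. At all 9 shared loci both shMETTL3 values were above both shControl values, where 29.5% of all shared loci showed this. Medians over the 9 loci were 82.8 and 99.3 in shMETTL3 and 23.0 and 30.9 in shControl. At the locus nearest the start the values were 197 and 180 in shMETTL3 and 53.9 and 54.0 in shControl. How much KIRREL3 RNA each library held was not measured by these lists, and its part in the counts was not tested.

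Several RNA genes lie within KIRREL3. In the span of the uncharacterized lncRNA LOC105369559, whose strand the tables do not give, 29 loci were found, 18 of them knockdown-only. The plus-strand gene KIRREL3-AS2 spans 6 loci, all on the opposite strand to it, with 5 knockdown-only. Loci that lie in no other gene numbered 53, of which 28 were knockdown-only, 0 control-only and 6 in all 4 lists. The direction was thus the same outside the overlapping genes.

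On the strand opposite to KIRREL3 there were 4 loci. One lay 2.69 kb from the start (127000601 to 127000806), within the extent of the sense locus there, and was knockdown-only with folds of 4.43 and 4.80 in shMETTL3. Another, in the lncRNA KIRREL3-AS4 (126653356 to 126653530), was the gene's only control-only locus, with folds of 5.02 and 4.13 in shControl. Of the remaining antisense loci, 546 and 563 kb from the start, one was seen in shMETTL3 replicate 2 and shControl replicate 1 and the other in shControl replicate 2.

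No knockdown-only locus was found near KIRREL3 outside the gene. In the 500 kb beyond the gene's 3′ end, 31 loci were found, with 0 knockdown-only and 9 control-only. Both shMETTL3 lists shared 7 of them and both shControl lists 16. Of these 16, 56.25% were control-only, against 22.6% of all such loci. ST3GAL4, a sialyltransferase gene 8.72 kb away, had 2 loci and none of either kind. DCPS, a scavenger mRNA decapping enzyme, had 3 control-only loci, SRPRA, a signal recognition particle receptor subunit, 3, and FOXRED1, a complex I assembly factor, 2, each with 0 knockdown-only. The lncRNA gene GSEC had 2 and TIRAP 1, again with 0 knockdown-only, and a locus can count for more than 1 gene. The nearest locus outside the span lay 11.1 kb from the gene's end, and in the 500 kb before its start no list had a peak.

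LRRTM4 had control-only loci on both strands. The gene is taken as minus-strand because the promoter table puts its named antisense partner, LRRTM4-AS1, on the plus strand, and 25 of the 33 loci lay on the minus strand. Of the 12 control-only loci 7 were sense and 5 antisense. All 12 lay between 385 and 747 kb from the start. Between 100 and 300 kb no locus was found on the gene's strand, and near the start there were only 2, both in shControl replicate 2 alone.

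**Figure D4:**
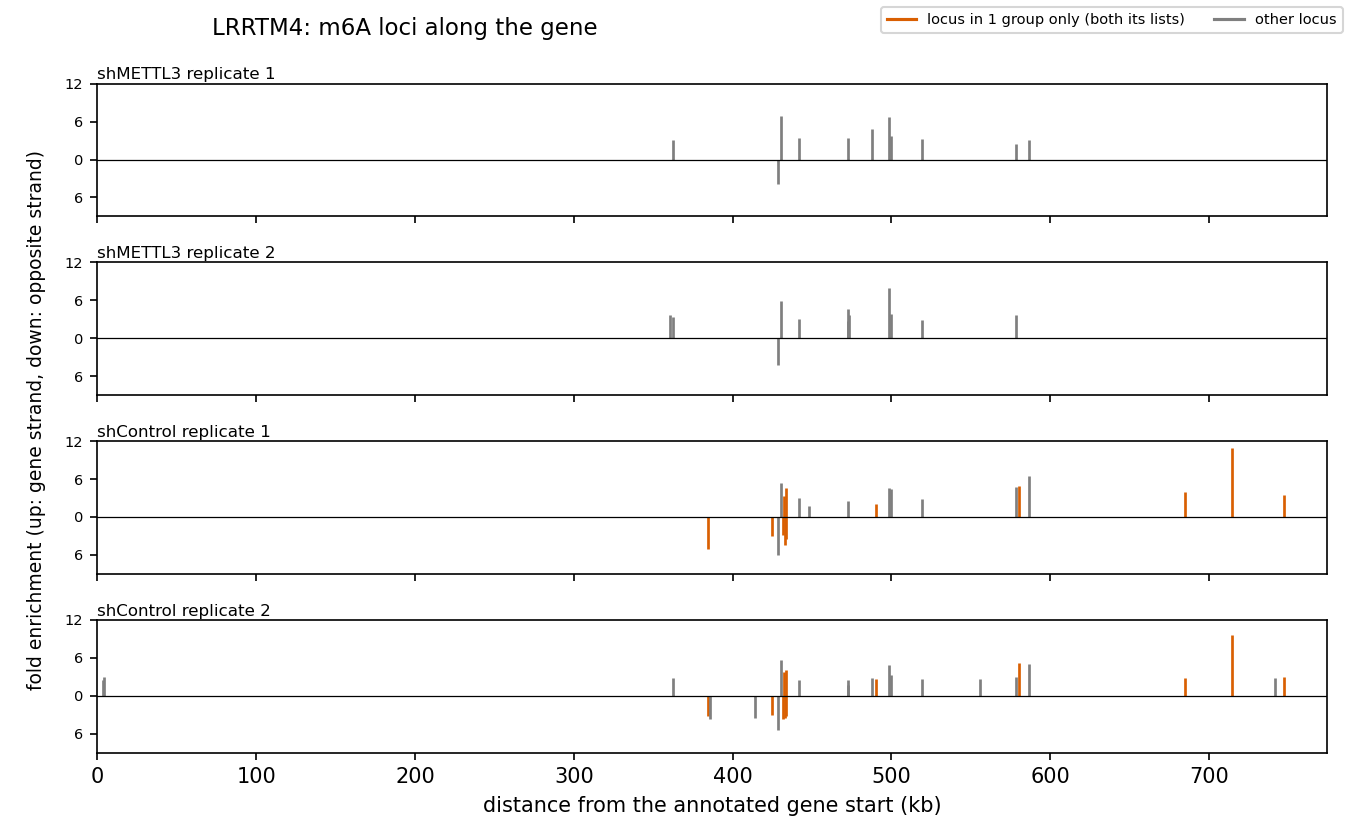
Lines show LRRTM4 loci by distance from the start (x axis, kb) and strongest fold enrichment per list (y axis, upwards for the gene's strand, downwards for the opposite strand). Orange control-only lines appear in the shControl panels from 385 kb on and on both strands, and the tallest, 714 kb inside the gene, has folds of 10.9 and 9.67.

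The strongest of the control-only loci lay 714 kb inside LRRTM4, with folds of 10.9 and 9.67 in shControl replicates 1 and 2. These are the 99.5th and 99.3th percentile of the shControl lists, and the −log10 q was 162 and 147. A second sense locus 580 kb from the start (76941984 to 76942357) had folds of 4.86 and 5.19 in shControl. The median fold over the 12 control-only loci was 3.72 and 3.34 in shControl, where all control-only loci of the lists had 3.56 and 3.45. Summits of the 2 shControl lists lay within 50 bp of each other at all 12.

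A short stretch of LRRTM4 carried peaks on both strands. Between 425 and 434 kb from the start (77088637 to 77097963) lay 5 antisense and 3 sense loci. Sense loci 433 kb from the start (77088766 to 77089079 and 77089613 to 77089869) were control-only, with folds of 4.50 and 4.08 at the first and 3.29 and 3.77 at the second. Of the antisense loci there, 4 were control-only, with shControl folds between 2.85 and 4.43. Kept in all 4 lists were a sense locus (77091376 to 77091988), with folds of 6.92 and 5.93 in shMETTL3 and 5.44 and 5.63 in shControl, and an antisense locus (77093379 to 77094228), with 3.82 and 4.29 in shMETTL3 and 5.95 and 5.47 in shControl. The antisense loci lie outside LRRTM4-AS1, whose span held 1 locus, sense to LRRTM4 and in all 4 lists.

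At the 7 shared LRRTM4 loci fold and significance went apart. Both shMETTL3 folds were above both shControl folds at 3 of the 7 and below at 1. Over all shared loci these patterns were found at 31.6% and 21.5%. The −log10 q was lower in both shMETTL3 lists than in both shControl lists at all 7, a pattern found at 28.0% of all shared loci. Medians were 19.1 and 17.8 in shMETTL3 and 50.1 and 40.6 in shControl. A locus 499 kb from the start (77023298 to 77023974) shows it, with folds of 6.71 and 7.92 in shMETTL3 against 4.60 and 4.86 in shControl, and −log10 q of 58.5 and 78.0 in shMETTL3 against 79.0 and 96.8 in shControl. The amount of LRRTM4 RNA was not measured, and its part in the control-only loci was not tested.

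Around LRRTM4 few loci were found. In the 500 kb on the 3′ side there were 11 loci, with 1 knockdown-only and 0 control-only, and in the 500 kb on the 5′ side 2, with none of either kind. The nearest locus there, 162 kb away, was in all 4 lists, with folds of 4.49 and 6.43 in shMETTL3 and 8.07 and 7.47 in shControl. The lncRNA LOC101927967 begins 221 kb away on that side. Over its full span, which reaches beyond these 500 kb, it had 25 loci, of which 0 were knockdown-only, 5 control-only and 7 in all 4 lists. Most of these loci, and all 5 control-only ones, lie beyond the 500 kb.

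GPHN held 2 kinds of loci, because its annotated span runs on over other genes. From the start of GARIN2, 681 kb into the span, it covers PALS1, a cell polarity gene, EIF2S1, which encodes a translation initiation factor subunit, PLEKHH1, ARG2, VTI1B and RDH11, among others. All 23 loci beyond that point lie in one of these genes, 9 of them in PALS1 and 4 each in PLEKHH1 and RDH11. Loci on the minus strand, opposite to GPHN, were 6 in number and fell in VTI1B and RDH11, which the promoter table puts on that strand, so they follow those genes' own strand. Only the 26 loci before GARIN2 can be given to GPHN alone.

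These 26 GPHN loci were all on the gene's strand, and 9 were knockdown-only, 0 control-only and 9 in all 4 lists. Of the 19 in both shMETTL3 lists 47.4% were knockdown-only, against 18.9% of all such loci. The first 200 kb held 24 of the 26. Within them, a cluster of 5 knockdown-only loci lay 152 to 161 kb from the start (66660629 to 66668535), where neither shControl list had a peak. Their folds ran from 3.46 to 4.68 in shMETTL3 replicate 1 and from 3.32 to 4.04 in replicate 2. Between 300 and 500 kb no list had a locus, and at 526 kb a locus was seen in shMETTL3 replicate 2 (fold 4.09) and in both shControl lists (5.61 and 4.67).

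**Figure D5:**
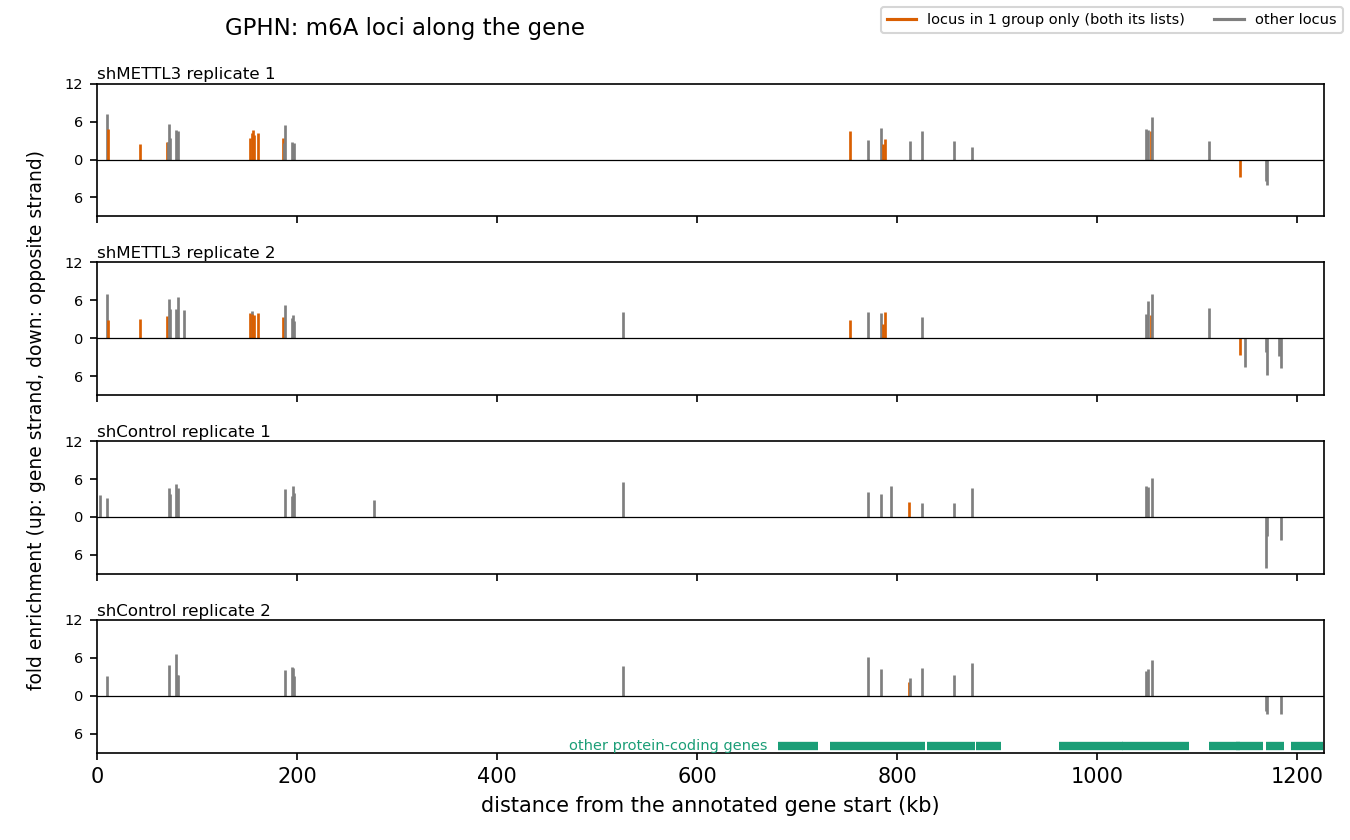
Lines show GPHN loci by distance from the start (x axis, kb) and strongest fold enrichment per list (y axis, upwards for the gene's strand, downwards for the opposite strand), and green bars mark other named protein-coding genes inside the span. Orange knockdown-only lines cluster near 155 kb in both shMETTL3 panels, and beyond 681 kb every line falls in another gene.

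The locus nearest to the GPHN start in all 4 lists, 9.76 kb inside (66517418 to 66518090), had folds of 7.17 and 7.05 in shMETTL3, against 3.002 and 3.11 in shControl. A knockdown-only locus followed it directly (66518152 to 66518820), with folds of 4.88 and 2.92 in shMETTL3. Another group of 3 shared loci 195 to 197 kb from the start had lower folds in shMETTL3, for example 2.49 and 3.68 in shMETTL3 against 4.87 and 4.38 in shControl at 66703688 to 66704352. Over the 9 shared loci before GARIN2, both shMETTL3 folds were above both shControl folds at 3 and below at 4. Over all shared loci of the lists these patterns were found at 31.6% and 21.5%. The −log10 q was above at 4 and below at 4, where 29.5% and 28.0% of all shared loci showed this. The shared GPHN loci thus went both ways, as shared loci of the lists did.

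In the part of the span that GPHN shares with other genes there were 5 knockdown-only loci, 1 control-only and 8 in all 4 lists. Of the 13 loci there in both shMETTL3 lists 38.5% were knockdown-only, against 47.4% before GARIN2, so both parts were above the 18.9% of all such loci. PALS1 held 3 of the knockdown-only loci and the control-only one. The weak control-only locus (67320110 to 67320280) had folds of 2.36 and 2.24 in shControl. RDH11, a retinol dehydrogenase gene, had an antisense-to-GPHN locus (67677428 to 67677802) with folds of 3.46 and 2.11 in shMETTL3 and 8.13 and 2.42 in shControl, so a single shControl list was high there.

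Beyond the GPHN span, the 500 kb on the 3′ side had 11 loci, with 0 knockdown-only and 2 control-only. The latter are 40% of the 5 in both shControl lists, against 22.6% of all such loci. RAD51B, a DNA repair gene 84.4 kb away, had 10 loci over its full span, with 2 knockdown-only and 2 control-only. On the 5′ side 1 locus was found, in shMETTL3 replicate 1 alone.

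Other genes of synaptic adhesion and of gephyrin's pathways had loci of both kinds. Of 118 genes in 7 lists, chosen with earlier results known and without the 3 genes, 58 had a locus. Their 516 loci included 49 knockdown-only and 74 control-only. That order turned with peaks of a fold of at least 4 (33 knockdown-only and 30 control-only) and without shMETTL3 replicate 2 (91 and 87). Of the 58 genes 13 had knockdown-only loci without control-only ones (22.4%, against 21.9% of all protein-coding genes with a locus), 13 had the reverse (22.4%, against 25.7%) and 13 had both. These shares are near those of all protein-coding genes.

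Among relatives and partners of KIRREL3, 8 genes had loci. KIRREL1, the family member best known from kidney podocytes, had 21 loci with 1 knockdown-only, 1 control-only and 7 in all 4 lists. KIRREL2 and the podocyte gene NPHS1 had none. TJP1, which encodes the junction scaffold ZO-1, had 4 knockdown-only and 7 control-only loci, CD2AP 2 and 1, and MAP1B, a microtubule-associated protein, 1 and 1.

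The other members of LRRTM4's own family, LRRTM1, LRRTM2 and LRRTM3, had no peak in any list. The further genes listed with them, leucine-rich repeat organizers and the netrin-G1 gene NTNG1, had 9 knockdown-only and 6 control-only loci. These are 40.9% of their loci in both shMETTL3 lists and 33.3% of those in both shControl lists, against 18.9% and 22.6% over all loci. LRRC4C, the netrin-G ligand gene, had 4 knockdown-only and 0 control-only loci, LRFN1 and FLRT2 2 and 0 each, and FLRT1 1 and 0. NTNG1, which encodes netrin-G1 and is not a leucine-rich repeat gene, had 0 and 4, and SLITRK1 and FLRT3 0 and 1 each. NTNG1 thus held 4 of the 6 control-only loci and 6 of the 18 loci in both shControl lists. The 33.3% rests largely on it. The presynaptic partners had 11 and 7, or 26.2% and 15.9%. Of these NRXN3, a neurexin gene, had 4 and 0, PTPRF, a receptor phosphatase gene, 3 and 5, and GPC6, a glypican gene, 1 and 1.

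The other postsynaptic adhesion genes had 14 knockdown-only and 34 control-only loci. These are 14.6% of their loci in both shMETTL3 lists, against 18.9% over all loci, and 28.1% of those in both shControl lists, against 22.6%. TENM1, a teneurin gene, had 0 knockdown-only and 14 control-only loci, and IL1RAPL1, whose protein binds presynaptic receptor phosphatases, had 0 and 9. IL1RAP had 5 and 0, NLGN1, a neuroligin gene, 2 and 2, and TENM3 2 and 4. TENM1 and IL1RAPL1 thus held most of the control-only loci. The immunoglobulin adhesion genes had 3 knockdown-only and 10 control-only loci. These are 14.3% of their loci in both shMETTL3 lists and 37.0% of those in both shControl lists, against the same 18.9% and 22.6%. NCAM2 had 2 and 4, SDK1 1 and 1, CNTNAP1 and L1CAM 0 and 2 each, and IGSF9B 0 and 1.

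Gephyrin's partners at inhibitory synapses had 3 knockdown-only loci and 1 control-only. These are 37.5% of 8 loci in both shMETTL3 lists and 20% of 5 in both shControl lists, against 18.9% and 22.6% over all loci. The glycine receptor genes GLRB and GLRA2 had 1 knockdown-only and 0 control-only loci each. In molybdenum cofactor synthesis MOCS1, MOCS2 and MOCS3 had 2, 1 and 2 loci and none of either kind, while MOCOS, the cofactor sulfurase, had 1 and 4. Without GPHN, 8.33% of the cofactor pathway's 12 loci in both shMETTL3 lists were knockdown-only, against the same 18.9%. Of its 17 loci in both shControl lists 23.5% were control-only, against 22.6%.

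The genes most like each member were sought by the shares of a gene's loci that each list holds, over 4 lists and among genes with 0.5 to 2 times as many loci. For KIRREL3, with 86.0% and 79.6% of its loci in the shMETTL3 lists and 12.9% and 11.8% in the shControl lists, the nearest of 33 genes were SLC35F3 (distance 0.174), RUNX1 (0.236) and CDH13 (0.286). SLC35F3 had 84.9% and 84.0% in shMETTL3 and 22.6% and 25.5% in shControl. For LRRTM4, with 33.3% and 36.4% in shMETTL3 and 66.7% and 90.9% in shControl, the nearest of 584 were its neighbour LOC101927967 (0.0394), IL1RAPL1 (0.110) and AHRR (0.111). For GPHN, with 77.6% and 79.6% in shMETTL3 and 53.1% and 46.9% in shControl, the nearest of 221 were MIR4527HG (0.0852), MTCL1 (0.0920) and EHMT1 (0.0997). The distance is Euclidean over the 4 shares and describes these lists only.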

How the data were processed

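MeRIP-seq peak lists of 4 libraries, 2 shMETTL3 and 2 shControl, were used. The authors deposited 1 list per library. Tools listed in the submitters' processing notes, with no role stated, are MACS2 2.2.7.1, SAMtools, HISAT2 2.1.0, Bowtie2 2.4.2 and Trim Galore 0.6.6, and the build is hg38. Deposited peak names show 1 call per strand. Fold enrichment is the deposited ratio at the summit, and p and q were deposited as −log10 values. No source used here says whether inputs or the methylated spike-in scaled these values.

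Peaks sharing at least 1 bp on a strand were joined to 66409 loci (Python 3.11.15, pandas 2.3.3) and assigned to RefSeq spans by the strongest peak's summit. A locus takes its strongest peak's fold per list. Strands came from the RefSeq promoter table (27305 of 59792 genes). The table has no exons, and without a genome other peak sequences are not shown. Joining and classes were tested on simulated data. Genes were named by rule: the 3 genes, list genes with knockdown-only or control-only loci, relatives of the 3, flanking genes and the 3 most alike. Members and lists were chosen with earlier results of these data known.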

Additional observations from a re-analysis of the deposited data

How the results depend on the processing

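The counts of 1-group loci were recomputed under 11 other settings each, and larger moves than 1.5 times are given with their values; except where the setting itself removes loci, the cause was not tested. With a fold of at least 4, knockdown-only loci numbered 21 in KIRREL3 and 2 in GPHN, and control-only loci 4 in LRRTM4, 2 in GPHN and 30 in the synaptic lists. The synaptic lists then had more knockdown-only than control-only loci (33 against 30, where the reported counts are 49 and 74), and so had all loci together (4029 against 3465, where the reported counts are 6285 and 8299). With a −log10 q of at least 20, knockdown-only loci were 35 in KIRREL3 and 4 in GPHN, and control-only loci 2 in GPHN. Loci in no other gene, a setting chosen after seeing the data, left 28 knockdown-only and 0 control-only in KIRREL3 and 9 and 0 in GPHN. On the strand with most of the gene's loci, LRRTM4 kept 7 control-only loci and KIRREL3 0. With lists of equal length LRRTM4 had 1 knockdown-only locus. The 50% overlap and the search within 500 bp moved no count that far. Leaving out 1 library at a time gave 53 to 72 knockdown-only and 1 to 2 control-only loci in KIRREL3, 0 to 2 and 13 to 18 in LRRTM4, 14 to 19 and 1 to 4 in GPHN, and 61 to 91 and 87 to 124 in the synaptic lists. In each of the 3 genes the larger kind stayed the larger, except in GPHN with a fold of at least 4, where both were 2. A missing library makes loci of both kinds easier to call. They need presence in fewer lists of its group, or absence from fewer, so higher counts are partly by construction. No paired analysis was possible because the counts come from no test and no label ties an shMETTL3 replicate to the shControl replicate of the same number. Read depth is unknown, so a missing peak may be one that these libraries could not detect.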
